A study of Mus musculus with 6 samples.

Results

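Potassium channel genes were taken as all features whose symbol starts with Kcn and whose counts summed to 60 or more over the 6 libraries. Of 94 features with such a symbol, 81 met this limit, out of 26554 features in all. Each of the 81 is a protein-coding gene, and they form 21 subfamilies, from Kcna to Kcnv. The member just inside the limit was Kcnrg, with 140 summed counts, and the gene just outside it was Kcnk15, with 49. The other genes below the limit were Kcna10, Kcng3, Kcnk7, Kcnj15, Kcnk18, Kcnmb3, Kcne3, Kcnv2, Kcne1, Kcna7, Kcnj1 and Kcnk16, and the last 3 of these had 0 counts in every library. All 81 members had counts high enough to be tested.

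The tissue was the ventral posterolateral and posteromedial thalamus (VPL/VPM), the relay for touch and pain from body and face. Wild-type C57 mice had received 10 nL into the right VPL/VPM, either type IV collagenase (0.01 U), which breaks down vessel basement membrane and serves as a model of central post-stroke pain, or saline. Poly(A) RNA was sequenced at day 14 in 3 libraries per group. The sources used here do not give age or sex, or say whether a library came from 1 animal, so p-values measure the spread between these libraries, which may be technical.

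Total counts ranged from 33603076 to 44815451 per library. Markers of thalamic relay neurons were present in every library, with a summed level of 2629 to 4208 CPM (counts scaled to library size) in saline and 2701 to 3278 CPM in collagenase libraries. Marker lists of some tissues near these nuclei differed between libraries of the same group. The 7 choroid plexus and ependyma markers summed to 46.8 CPM in saline replicate 3 and 43.2 CPM in collagenase replicate 3, against 917.9 to 2550 CPM in the other 4 libraries, where most of the sum was Ttr. The ependymal genes in this list, Foxj1, Ccdc153 and Tmem212, did not follow it and were highest among saline libraries in replicate 3. The 8 striatal markers summed to 1126 CPM in saline replicate 3 and 389.8 CPM in collagenase replicate 1, against 179.8 to 233.5 CPM elsewhere. These differences cut across the treatment groups and are given below beside the members they move with.

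Potassium channels let potassium leave or enter the cell and so set the resting potential, end the action potential and limit repeated firing. Voltage-gated subunits open on depolarisation, inward rectifiers and tandem-pore leak channels hold the membrane near rest, and calcium- or sodium-activated channels open after spikes or calcium entry. Auxiliary subunits do not form the pore but change the number, speed or voltage range of the channels. In thalamic relay neurons, leak and M-type currents help to decide between tonic firing and bursts, and in astrocytes an inward rectifier takes up potassium released by neurons.

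Levels were compared between genes on the FPKM scale, which divides by gene length. Summed over members in saline libraries, the inward rectifiers (Kcnj, 13 members) ranked first, at 213 ± 20.03 FPKM (SD, n = 3). They were followed by Kcnc, the fast delayed rectifiers of rapidly firing neurons, at 197 ± 15.04 FPKM (4 members), and by Kcnab, the cytoplasmic beta subunits, at 173 ± 7.17 FPKM (3 members). Kcnip, calcium-binding partners of A-type channels, measured 158 ± 36.4 FPKM (4 members). The saline ranges of Kcnj and Kcnc overlapped, as did those of Kcnab and Kcnip. Within each saline library Kcnj lay above Kcnc, by little in replicate 1 (214.7 against 214.0 FPKM). Kcnab lay above Kcnip in saline replicates 1 and 2 and below it in replicate 3, so their order is not resolved. Kcnip reached 199.7 FPKM in saline replicate 3, above the lowest saline value of Kcnc (187.9 FPKM) and of Kcnj (192.5 FPKM). Within saline replicate 3 Kcnip also lay above Kcnc (188.1 FPKM), so the order of Kcnip and Kcnc is not resolved either. Kcnip lay below Kcnj within each saline library, though their ranges overlapped. Kcnc lay above Kcnab in every saline library, and Kcnip above Kcnk.

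The middle of the order was steeper than its spread. Kcnk, the tandem-pore leak channels, stood at 94.5 ± 4.25 FPKM (10 members), and Kcna, axonal low-threshold channels, at 69.6 ± 5.70 FPKM (6 members). Kcnq, which carries the M-current, was at 60.6 ± 2.59 FPKM (5 members), and Kcnd, the A-type pore, at 48.4 ± 3.31 FPKM (3 members). From Kcnip down to Kcnmb each subfamily lay above the next without overlap in the saline libraries. Kcnmb, the beta subunits of the large-conductance calcium-activated channel, and Kcnh, the ether-a-go-go group, were at 33.7 ± 3.34 and 31.9 ± 3.63 FPKM and overlapped.

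From Kcnn at 18.5 ± 1.08 FPKM to Kcnb at 11.3 ± 1.87 FPKM, 8 subfamilies followed whose neighbours in the order all overlapped: Kcnn, Kcnma, Kcne, Kcnt, Kcns, Kcng, Kcnf and Kcnb. The lowest were Kcnv at 1.80 ± 0.832 FPKM, Kcnu at 0.731 ± 0.182 FPKM and Kcnrg at 0.326 ± 0.0887 FPKM. Because the sum favours large subfamilies, the median member gave another order: Kcnc, Kcnab and Kcnip led in this order, while Kcnj stood at rank 8 and Kcnk at rank 10. In the same saline libraries voltage-gated pore genes made up 34.9% of the summed FPKM of all members and auxiliary subunits 31.6%, against 17.8% for inward rectifiers and 7.88% for leak channels.

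**Figure D1:**
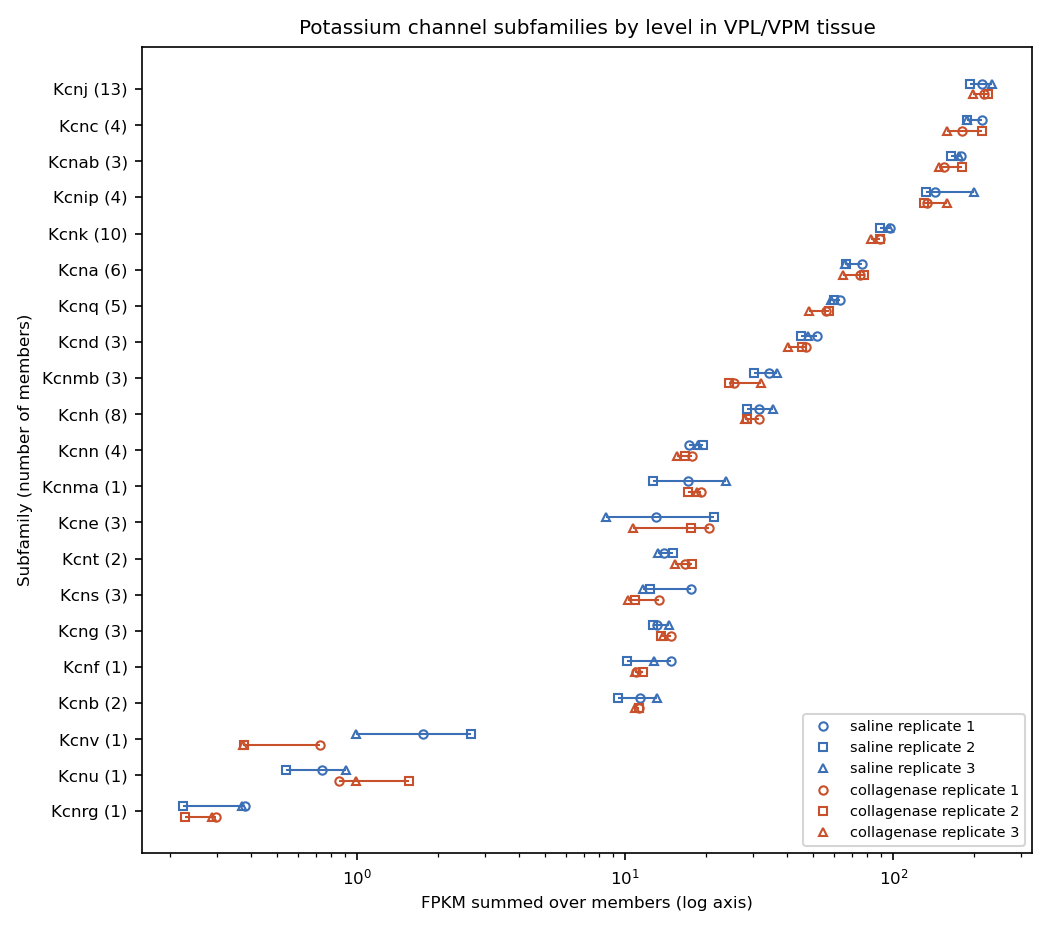
Summed FPKM of the members of each subfamily (log axis) in the 3 saline and 3 collagenase libraries, with the number of members in parentheses; lines join the lowest and highest library of a group. Kcnj, Kcnc, Kcnab and Kcnip lie above 130 FPKM in each saline library, and Kcnv, Kcnu and Kcnrg at or below 2.66 FPKM.

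Within subfamilies, 1 or 2 genes often carried the level. Kcnab2, a beta subunit that binds Kcna channels, was the highest member of all, at 102, 98.8 and 104 FPKM in saline replicates 1, 2 and 3. Kcnj10, the main inward rectifier of astrocytes, measured 86.0, 82.0 and 113 FPKM and held 44.0% of the Kcnj sum. Kcnc2 measured 97.8, 72.2 and 85.8 FPKM, Kcnip4 measured 72.8, 55.0 and 100.4 FPKM, and Kcnc1 measured 74.5, 71.5 and 59.3 FPKM. Each of the first 4 overlapped with the next in the order. Kcnk1, a leak channel also called TWIK, at 51.9 ± 4.35 FPKM, ranked next and lay below Kcnc1 and above Kcnj9 in all saline libraries.

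Among the next members, down to rank 15, were Kcnj9, Kcnab1, Kcnip3, Kcnmb4, Kcnab3, Kcnd2 and Kcna2, from 42.2 ± 5.44 to 26.9 ± 2.70 FPKM. Kcnj9 encodes a G protein-gated subunit, Kcnd2 the dendritic A-type pore, and Kcnmb4 the neuronal beta subunit of the channel formed by Kcnma1, which stood at 17.9 ± 5.61 FPKM. The highest members of other subfamilies included Kcnh2 (21.9 ± 2.23 FPKM), Kcnf1 (12.6 ± 2.35 FPKM), Kcnt1 (11.8 ± 0.879 FPKM) and Kcnn2 (11.1 ± 0.612 FPKM). Below them were Kcng4 (8.77 ± 2.62 FPKM), Kcns2 (7.80 ± 1.97 FPKM), Kcne1l (6.72 ± 0.890 FPKM), Kcnv1 and Kcnu1. In all, 30 members reached 10 FPKM in saline and 67 reached 1 FPKM.

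Some members lie next to each other on the chromosome without sharing a level. Kcnj9 (chromosome 1, 172320501 to 172329318, minus strand, GRCm38) and Kcnj10 (172341210 to 172374085, plus strand) are 11891 bp apart and transcribed away from each other, at 42.2 and 93.7 FPKM. Kcna3 and Kcna2, 63075 bp apart on chromosome 3, stood at 0.471 and 26.9 FPKM. Kcna3 is the Kcna channel best known from T cells and microglia, and Kcna2 is a channel of axons.

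After collagenase, 2 of the 81 members fell and the other 79 did not pass the test. Kcnq5, an M-current subunit, and Kcnv1, a subunit that forms no channel alone and modifies Kcnb channels, were the members that passed at a Benjamini-Hochberg adjusted p under 0.05 in edgeR's quasi-likelihood test. Among all 17240 tested features, 0.29% were called lower, 2.12% higher and 2.41% in either direction. The edgeR test called 0 members higher, 4 had an unadjusted p under 0.05 in that direction, and DESeq2 called 2 higher, Kcnj5 and Kcnk6.

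Most members differed little between groups. The log2 fold change, collagenase over saline, was under 0.5 in size for 66 of 81 members and below 0 for 59 (72.8%), where 53.4% of all tested features lay below 0. The median was -0.14 for the members and -0.02 for all tested features. The groups did not overlap in CPM for 18 members (22.2%), against 17.6% of all features. Of these, 13 members were lower (7.5% of all features were lower without overlap) and 5 higher (10.1%). An unadjusted p under 0.05 was reached by 20 members, 16 of them lower, against 12% of all features.

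Neuronal markers stood beside this as follows. The 9 pan-neuronal markers had a median log2 fold change of -0.14 and the 10 relay markers of -0.17, beside -0.14 for the channel genes. Other neuronal lists lay further from 0, in both directions. The median was -0.80 for 11 GABAergic and reticular, -0.60 for 14 hippocampal and cortical and -1.09 for 8 striatal markers. For the 7 habenular markers it was 1.00, and 0 of them had a value below 0. Of the striatal, habenular, and hippocampal and cortical markers 0 were called, and of the GABAergic and reticular markers 1. Saline replicate 3 stood apart from saline replicates 1 and 2 in 2 lists. Its striatal sum was 1126 against 233.5 and 206.0 CPM, and its habenular sum 216 against 32.1 and 34.0 CPM. In whole tissue, fewer cells of a type and less RNA per cell cannot be told apart, and the part of cell numbers in the members' values was not tested.

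By role, the median log2 fold change was -0.10 for the 28 voltage-gated pore genes and -0.48 for the 8 modulatory subunits (Kcnf, Kcng, Kcns and Kcnv), of which 7 had a value below 0. It was -0.12 for the 8 pores of Kcnma, Kcnn, Kcnt and Kcnu, -0.10 for 13 inward rectifiers, -0.16 for 10 leak channels and -0.20 for 13 auxiliary subunits. In summed FPKM 4 of 21 subfamilies had groups that did not overlap, near the 17.6% of single features without overlap in CPM. Kcnk was at 97.1, 89.6 and 96.7 FPKM in saline and 89.5, 89.0 and 82.3 FPKM in collagenase libraries. Kcnq was at 63.4, 60.01 and 58.3 against 56.1, 57.3 and 48.6 FPKM, and Kcnv also lay lower. Kcnt, the sodium-activated channels, lay higher, at 13.9, 15.1 and 13.3 against 16.7, 17.7 and 15.3 FPKM.

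**Figure D2:**
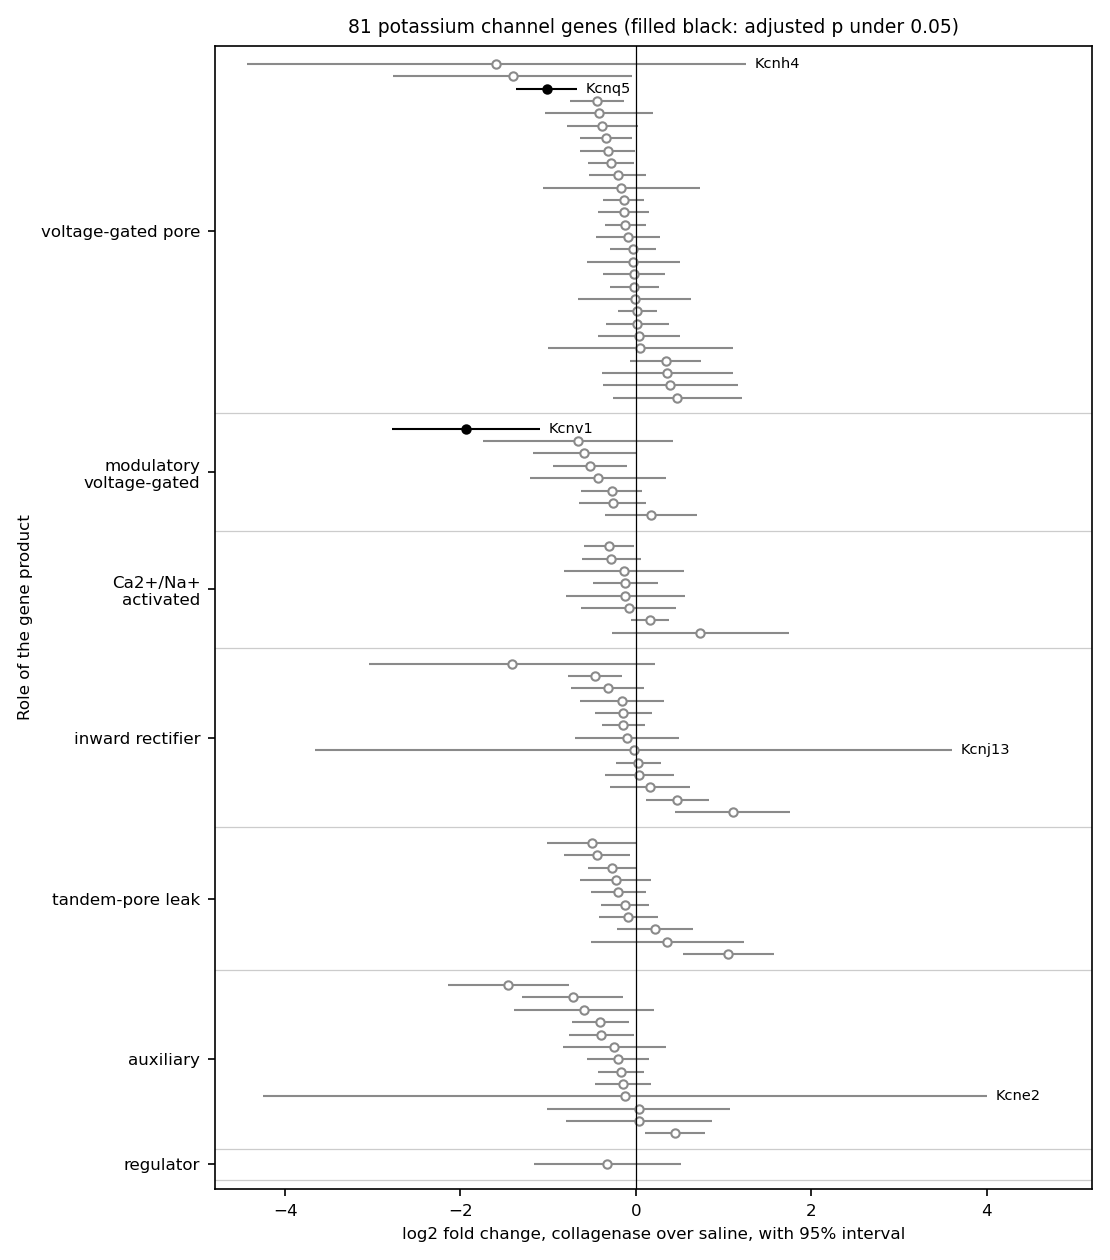
Log2 fold change, collagenase over saline, of the 81 members with its 95% interval from the edgeR fit, grouped by role and ordered by value within a role. Most points lie within 0.5 of 0, the called genes Kcnq5 and Kcnv1 are filled and lie left of 0, and Kcne2, Kcnj13 and Kcnh4 have the widest intervals.

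Kcnq5 (ENSMUSG00000028033, chromosome 1, 21398403 to 21961942, minus strand, GRCm38) measured 35.8, 41.4 and 31.6 CPM in saline replicates 1, 2 and 3, and 21.2, 15.5 and 17.0 CPM in collagenase replicates 1, 2 and 3. Every collagenase library lay below every saline library. It fell by 1.02 on the log2 scale (SE 0.15, 95% interval -1.37 to -0.67, edgeR adjusted p 0.0151). Kcnq3, another M-current gene, had a log2 fold change of -0.38 (95% interval -0.79 to 0.02) and did not pass. The Kcnq5 call ended without saline replicate 1 (adjusted p 0.0816 in edgeR), collagenase replicate 2 (0.0714) or collagenase replicate 3 (0.0805), with log2 fold changes of -1.16 to -0.92 over the fits that left out a library.

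Kcnv1 (ENSMUSG00000022342, chromosome 15, 45106284 to 45114920, minus strand) measured 8.25, 12.2 and 5.10 CPM in saline and 3.15, 1.75 and 1.74 CPM in collagenase libraries. The groups did not overlap, and the saline libraries varied 2.39-fold. It fell by 1.94 on the log2 scale (SE 0.37, 95% interval -2.78 to -1.09, edgeR adjusted p 0.0359). The Kcnv1 call ended without saline replicate 1 (edgeR adjusted p 0.141), saline replicate 2 (0.0631), collagenase replicate 2 (0.142) or collagenase replicate 3 (0.168).

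Some marker lists of other neurons were also lower in collagenase libraries. The 14 hippocampal and cortical markers summed to 1324 to 1360 CPM in saline and 991.9 to 1222 CPM in collagenase libraries. The 11 GABAergic and reticular markers summed to 903.8 to 1226 and 638.6 to 843 CPM, and 1 of them was called lower. In these lists 12 of 14 and 10 of 11 markers had a log2 fold change below 0. Emx1 and Spink8, cortical and hippocampal markers, were at 0 in saline replicate 3, the library with the highest sum of that list. In saline replicates 1, 2 and 3, Neurod6 was at 23.0, 39.8 and 0.176 CPM and Nptx1 at 115, 177 and 24.1 CPM. Camk2n1, the largest part of the sum, was at 587, 540 and 655 CPM. The narrow saline range of the sum therefore hides markers that differed between saline libraries. The part of these marker lists in the Kcnq5 and Kcnv1 values was not tested.

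The sequence upstream of 3 members is shown because Kcnq5 was called and Kcnip2 and Kcnj5 were the nearest to it in p on either side of 0 among members with a RefSeq promoter window, which 58 of the 81 members had. Each is the 250 bases before the RefSeq start (GRCm38.p6, minus strand, printed 5′ to 3′), with capitals for the GC box GGGCGG on either strand. The windows are chr1:21961943-21962192 for Kcnq5, chr19:45816064-45816313 for Kcnip2 and chr9:32344345-32344594 for Kcnj5.
Kcnq5: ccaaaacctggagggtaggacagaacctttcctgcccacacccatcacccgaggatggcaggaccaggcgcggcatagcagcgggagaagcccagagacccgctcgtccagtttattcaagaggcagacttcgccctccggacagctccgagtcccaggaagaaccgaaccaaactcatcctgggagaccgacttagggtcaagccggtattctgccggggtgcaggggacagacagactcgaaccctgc
Kcnip2: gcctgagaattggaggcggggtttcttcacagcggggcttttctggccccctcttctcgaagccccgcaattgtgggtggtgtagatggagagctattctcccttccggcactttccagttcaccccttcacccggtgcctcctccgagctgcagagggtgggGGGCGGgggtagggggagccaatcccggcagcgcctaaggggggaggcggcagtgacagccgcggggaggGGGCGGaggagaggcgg
Kcnj5: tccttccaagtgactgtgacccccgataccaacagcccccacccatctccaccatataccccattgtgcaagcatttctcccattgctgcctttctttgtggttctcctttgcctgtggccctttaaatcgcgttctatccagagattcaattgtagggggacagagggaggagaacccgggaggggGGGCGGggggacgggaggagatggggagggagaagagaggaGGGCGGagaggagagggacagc

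The Kcnq5 window holds no GC box, and those of Kcnip2 and Kcnj5 hold 2 each. Of all 32851 such windows held by RefSeq, 32.7% hold one, and of the 82 windows of members 46.3%. The TATA box TATAAA, on either strand, was in none of the 3 windows, in 3.66% of member windows and in 12.4% of all windows. The E-box CANNTG was in 65.9% of member windows and 66.2% of all. Some genes have several windows, and a match is a description of letters only.

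Among the auxiliary subunits, Kcnip2 had the smallest p. It encodes a calcium-binding protein that raises A-type current through Kcnd channels. It measured 40.3, 55.2 and 46.1 CPM in saline and 26.0, 11.8 and 13.7 CPM in collagenase libraries. The groups did not overlap, collagenase replicate 1 lay nearest to saline, and the threshold was missed (log2 fold change -1.45, SE 0.30, edgeR adjusted p 0.0546). Without collagenase replicate 1 its edgeR adjusted p was 0.00549, and DESeq2 called it at 1.7e-05. Over the 6 fits that left out a library its adjusted p ranged from 0.00549 to 0.185.

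Kcnab1, a beta subunit that speeds the closing of Kcna channels, measured 152, 115 and 169 CPM in saline and 111, 108 and 109 CPM in collagenase libraries. The log2 fold change was -0.40 and missed the threshold (SE 0.14, edgeR adjusted p 0.273), and only the fit without saline replicate 2 called it (0.0474). Kcnmb2, an inactivating beta subunit, was at 8.18, 4.31 and 5.37 against 3.76, 3.47 and 3.63 CPM, with saline replicate 1 far above the rest. Its log2 fold change was -0.72 (SE 0.25, edgeR adjusted p 0.271). Kcne1l, an X-linked single-pass subunit also named Kcne5, was at 9.42, 12.1 and 12.6 against 15.1, 16.7 and 14.7 CPM (log2 fold change 0.45, SE 0.15, edgeR adjusted p 0.241).

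Among the inward rectifiers no member passed. Kcnj3 and Kcnj5 encode G protein-gated subunits, which open on signals from GABA-B, opioid and adenosine receptors. Kcnj3 was at 146, 117 and 163 CPM in saline and 100.1, 112 and 96.2 CPM in collagenase libraries (log2 fold change -0.47, SE 0.14, edgeR adjusted p 0.173). Kcnj5, much lower in level, was at 1.89, 1.6 and 2.61 against 4.22, 3.20 and 5.67 CPM (log2 fold change 1.10, SE 0.29, edgeR adjusted p 0.122). The groups did not overlap for either gene, and their values went in opposite directions. Kcnj5 was called higher by DESeq2 (adjusted p 0.0180) and by edgeR without saline replicate 3 (0.0436). Habenular markers, summed, were at 32.1, 34.0 and 216 CPM in saline and 180.03, 93.3 and 273 CPM in collagenase libraries, and collagenase replicate 3 held the highest value of both this sum and Kcnj5. Saline replicate 3 lay above collagenase replicates 1 and 2 in this sum but below both in Kcnj5. The part of habenular markers in the Kcnj5 values was not tested.

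Kcnj8, the pore of the ATP-sensitive channel of pericytes and smooth muscle, was at 5.88, 4.95 and 4.90 CPM in saline and 7.50, 6.91 and 7.44 CPM in collagenase libraries (log2 fold change 0.47, SE 0.16, edgeR adjusted p 0.244). The 7 pericyte and smooth muscle markers summed to 273.9 to 311.3 and 315.9 to 378.2 CPM, higher in every collagenase library. Kcnj10 was at 494, 463 and 717 against 541, 623 and 553 CPM, with overlapping groups and a log2 fold change of 0.04 (95% interval -0.36 to 0.43). The 10 astrocyte markers summed to 3768 to 4133 CPM in saline and 4596 to 4947 CPM in collagenase libraries, and 2 of them were called higher.

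Among the leak channels, Kcnk6, also called TWIK2, had the smallest p. It measured 2.68, 2.82 and 2.96 CPM in saline and 7.44, 5.70 and 4.43 CPM in collagenase libraries, so the saline libraries were tight and the collagenase libraries all higher. With a log2 fold change of 1.05 it missed the threshold (SE 0.23, edgeR adjusted p 0.0566), while DESeq2 called it (0.00253), as did edgeR without a filter on low counts (0.0478). Of the 12 markers of microglia and macrophages, 9 were called higher and 0 had a log2 fold change below 0. These markers summed to 215.2 to 259.5 CPM in saline and 709.2 to 1239 CPM in collagenase libraries, highest in replicate 1, where Kcnk6 was highest. Their part in the Kcnk6 values was not tested. Kcnk13, the leak channel of resting microglia, was at 18.3, 18.0 and 16.5 against 19.6, 16.3 and 13.8 CPM (log2 fold change -0.09, 95% interval -0.43 to 0.25).

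Of the remaining pore and modulatory genes, Kcnc2 and Kcng1 were among the 12 members with the smallest p. Kcnc2 was at 489, 358 and 439 CPM in saline and 296, 345 and 306 CPM in collagenase libraries (log2 fold change -0.44, SE 0.14, edgeR adjusted p 0.2). Kcng1, a modulatory partner of Kcnb channels, was at 7.71, 11.7 and 10.3 against 7.46, 6.72 and 6.50 CPM (log2 fold change -0.52, SE 0.18, edgeR adjusted p 0.281). In both genes the groups just failed to touch, and neither passed.

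**Figure D3:**
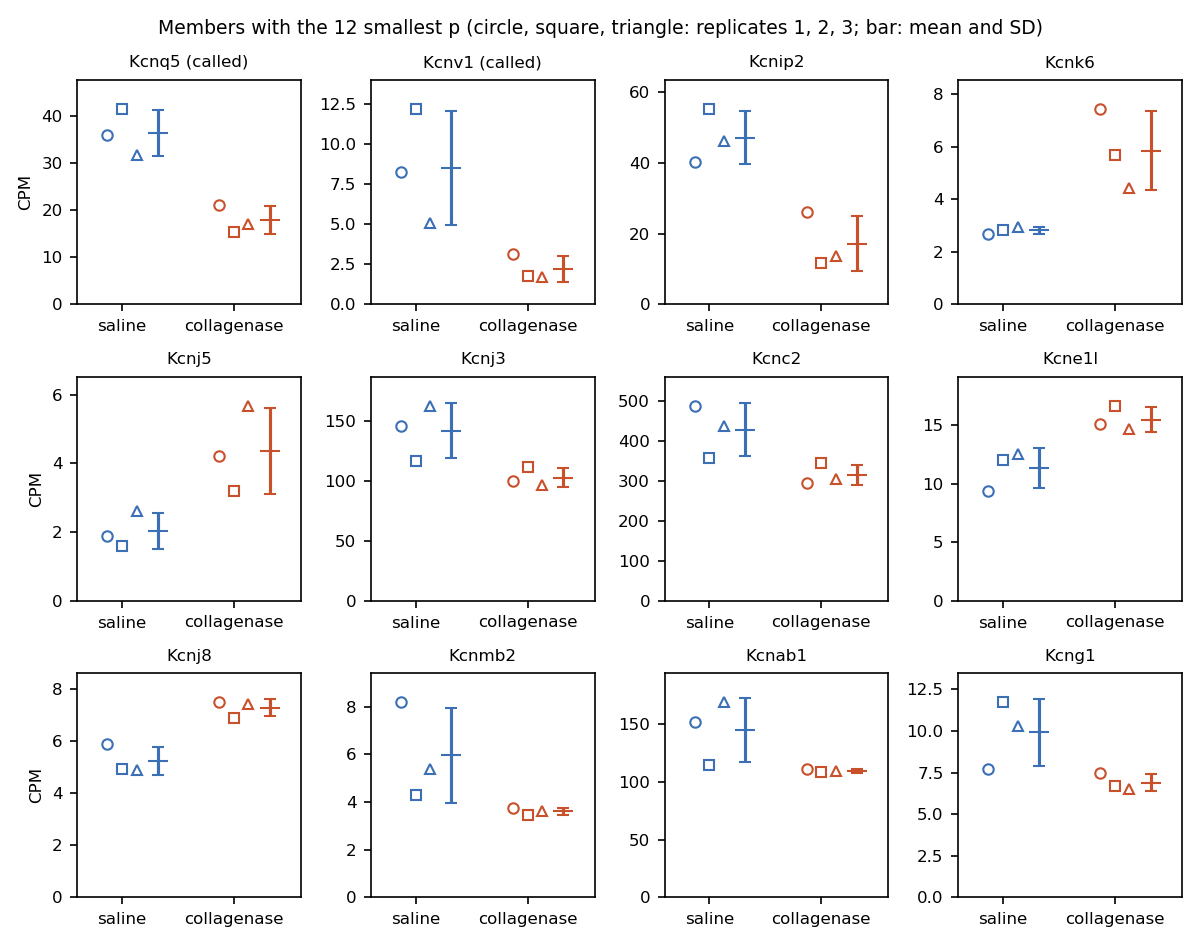
CPM in each library of the 12 members with the smallest p, with the mean and SD of each group (n = 3). No panel shows overlap between groups, Kcnq5 and Kcnv1 passed the test, and Kcnk6, Kcnj5, Kcne1l and Kcnj8 are the panels in which collagenase libraries are higher.

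Intervals of 6 of the 15 members with the highest level in saline are given first, as bounds on a difference. Kcnab2 had a log2 fold change of -0.17 (95% interval -0.43 to 0.09), Kcnc1 of -0.21 (-0.53 to 0.12) and Kcnk1 of -0.27 (-0.55 to 0.00). For Kcna2 the value was -0.04 (-0.30 to 0.23), and for Kcnd2 it was -0.28 (-0.54 to -0.02, edgeR adjusted p 0.359). Kcnip4, a partner of Kcnd channels, varied more between libraries and gave -0.25 (-0.84 to 0.34). None of the 6 intervals reached the value of Kcnq5. Of the others among the 15, the intervals of Kcnc2 (-0.75 to -0.13), Kcnab1 (-0.73 to -0.08) and Kcnmb4 (-0.77 to -0.02) lay wholly below 0. None of these was called, and the intervals of the rest spanned 0.

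A few members varied far more among saline libraries than between groups. Over the 81 members, the highest saline library exceeded the lowest by a median of 1.49-fold, and by over 5-fold for 3: Kcnj13, Kcne2 and Kcnh4. Kcne2 and Kcnj13 are known from choroid plexus epithelium. Kcne2 measured 5.29, 19.1 and 0.205 CPM in saline and 13.5, 8.66 and 0.285 CPM in collagenase libraries. Kcnj13 measured 7.55, 17.3 and 0.147 against 12.7, 10.5 and 1.27 CPM. Both were lowest in replicate 3 of each group, the libraries in which Ttr, the transthyretin gene of choroid plexus, was at 12.9 and 10.2 CPM, against 847 to 2382 CPM in the other libraries. Their log2 fold changes of -0.12 and -0.02 had 95% intervals of -4.25 to 4.01 and -3.65 to 3.60, so these libraries bound no difference for them.

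Kcnh4 and Kcnh3, forebrain members of the ether-a-go-go group, and Kcnj4, a strong inward rectifier of forebrain neurons, varied in another order. Kcnh4 was at 0.946, 0.669 and 8.30 CPM in saline and 2.23, 0.269 and 0.726 CPM in collagenase libraries. Kcnh3 was at 8.67, 11.2 and 18.3 against 9.22, 2.42 and 2.69 CPM, and Kcnj4 at 15.7, 9.31 and 25.7 against 12.6, 2.82 and 3.45 CPM. All 3 were highest in saline replicate 3, and in the collagenase group in replicate 1, as was the summed level of striatal markers. Other libraries did not follow that sum. It was 206.0 CPM in saline replicate 2 and 206.5 CPM in collagenase replicate 2. Between these libraries Kcnh3 went from 11.2 to 2.42 CPM, Kcnj4 from 9.31 to 2.82 CPM and Kcnh4 from 0.669 to 0.269 CPM. The part of striatal markers in these values was not tested. Their groups overlapped, and their log2 fold changes of -1.59, -1.40 and -1.42 missed the threshold, at edgeR adjusted p of 0.694, 0.396 and 0.487. Without collagenase replicate 1 edgeR called Kcnh3 lower, and without saline replicate 3 it called Kcng2, another modulatory subunit.

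**Figure D4:**
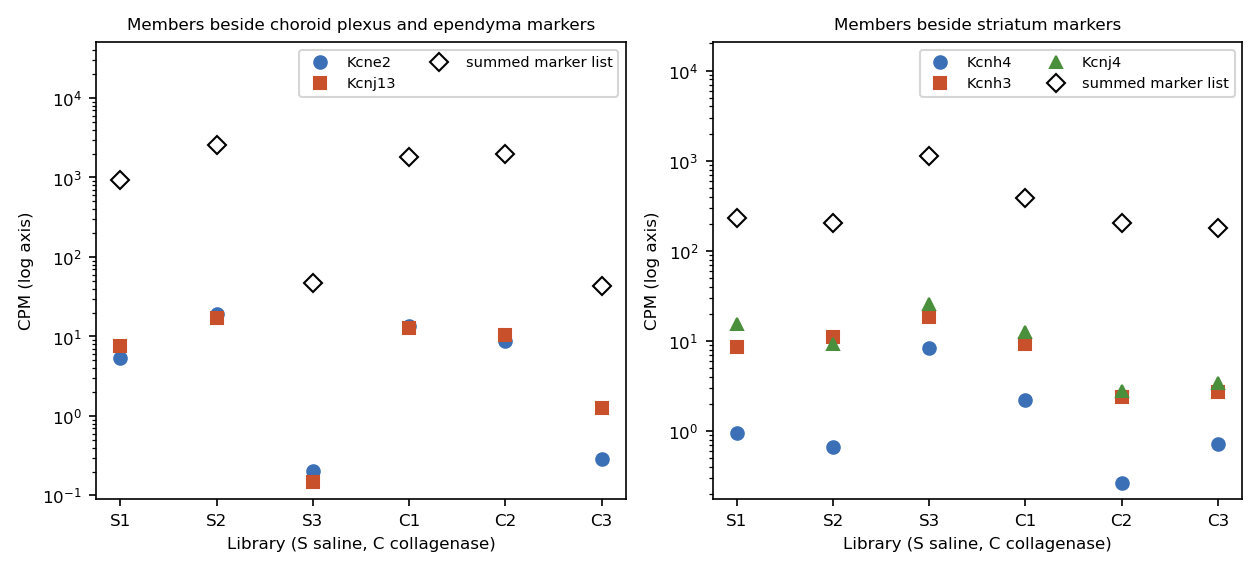
CPM (log axis) of 5 members in each library beside the summed CPM of the choroid plexus and ependyma markers (left) or of the striatal markers (right). Kcne2 and Kcnj13 are lowest in S3 and C3, as is the choroid plexus sum, and Kcnh4, Kcnh3 and Kcnj4 are highest in S3.

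Partners of these channels outside the Kcn names were described by a list of 45 genes, such as accessory proteins (Dpp6, Dpp10, Abcc8), scaffolds (Dlg4, Ank3) and G protein signalling genes (Gabbr1, Gnao1). Of 44 tested, edgeR and DESeq2 each called 0, where edgeR called 2.41% of all features. An unadjusted p under 0.05 in edgeR was found for 5 of the 44, near the 12% of all features. The median log2 fold change of the 44 was -0.07, against -0.02 for all tested features. The 3 with the smallest p were Vapa, a membrane contact protein that binds Kcnb channels, Gnai1, an inhibitory G protein subunit, and Gnb5, a partner of RGS proteins. Their log2 fold changes were -0.23, -0.33 and -0.23, with edgeR adjusted p of 0.331, 0.351 and 0.357.

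Reads of overlapping genes set a limit on some members. The labels name no step that marks the strand, and 24 members share exon bases with a gene on the opposite strand in GENCODE M21, among them Kcnq5 (237 bp, with Gm26580), Kcnj3 (1621 bp, with Gm26794) and Kcnj13 (623 bp, with Gigyf2). Kcnv1, Kcnip2 and Kcnk6 share none.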

How the data were processed

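Each of the 6 deposited files lists 26554 features with 2 columns that the file headers name count and FPKM, which the authors made from the reads. GRCm38, HISAT2 2.2.1, FastQC, DESeq2 and StringTie appear in the submitters' processing notes, without roles. Which tool counted reads, with which annotation release and strand setting, is not given in the sources used here. Lines of spilled annotation text (10 per file) were skipped, and 22022 identifiers matched the symbol table.

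The deposited counts were tested with edgeR 4.0.16 (R 4.3.3) across 17240 features kept by filterByExpr, with TMM factors (0.898 to 1.06), a two-sided quasi-likelihood F-test with robust dispersion and Benjamini-Hochberg adjustment over all tested features at 0.05. CPM is TMM-scaled. Standard errors were derived from the log2 fold change and F. Alternatives used DESeq2 1.42.0, other factors, no filter, a replicate block and each library left out. The deposited FPKM served for levels, and an alternative used CPM per kb of GENCODE M21 exon length.

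Named genes are members called, the 12 with the smallest p, the 15 with the highest saline FPKM, the highest of each subfamily, the 2 at the count limit, and the 3 partners with the smallest p. Others were chosen after their values were seen. Some results are not reported here. The members and lists were chosen with earlier results of these data known. PCR reads are not independent molecules.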

Additional observations from a re-analysis of the deposited data

How the results depend on the processing

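The count of 2 called members was the same with RLE or upper-quartile factors, and 3 without a filter on low counts (Kcnk6 added, higher) or without the robust option (Kcnip2 added). DESeq2 called 5 members, 3 lower and 2 higher, and 813 features in all against 416. Leaving out 1 library gave 0 to 4 called members: 0 without saline replicate 1, collagenase replicate 2 or collagenase replicate 3. It gave 85 to 917 called features, and 0 to 1 called partners, the 1 without saline replicate 3. The 12 members with the smallest p kept their direction in every alternative. The replicate number is given no meaning by the labels, and same-numbered libraries deviated together with correlations of 0.04, 0.11 and 0.20; saline replicate 1 correlated best with collagenase replicate 2. With a replicate block 2 members and 302 features were called. The 6 highest subfamilies were the same in the other alternatives for level, but by median member 3 of the 6 remained. Subfamilies without overlap numbered 4, and 6 by CPM per kb (Kcnd and Kcnn added, lower), or 5 to 9 with 1 library left out. The count to FPKM ratio of Kcnu1 varied 1.99-fold between libraries, so its FPKM is uncertain. Depth limits low members such as Kcnrg and Kcnn4. The cause of these changes was not tested.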
